A study of Mus musculus with 26 samples.

Results

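Mouse embryonic fibroblasts (MEFs) grown in culture were compared with intact heart and liver of embryos of the same age by RNA-seq. The comparison used 6 of the 10 RNA-seq libraries analysed here, chosen by their labels, out of 26 samples of the series in all. Of the 52454 gene symbols in the table, 16096 reached at least 1 FPKM (fragments scaled to the length of the transcript and to the number of mapped fragments) in at least 1 of the 6 libraries and were tested. A gene was counted as above or below the tissues when both MEF libraries lay on the same side of all 4 heart and liver libraries.

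The study asked how the DNA methyltransferases DNMT3A and DNMT3B set DNA methylation in the embryo, and it made these libraries to compare *Dnmt3a* wild-type (WT) with *Dnmt3a* knockout (KO) samples, not cultured cells with tissues. The MEFs were labelled as mixed fibroblasts of male C57BL6 E14.5 embryos at passage 1, with the allele *Dnmt3a* WT or *Dnmt3a* KO, kept in medium with serum and given DMSO, the vehicle of the drug GSK126. Heart and liver were male C57BL6 tissue of E14.5 embryos, and for each genotype they carried the number of the same embryo, so that heart and liver shared their 2 embryos. The null allele came from crosses of *Dnmt3a* heterozygous mice. Whether 1 MEF line came from 1 embryo or from several is not given in the sources used here. Each group was 1 library, so the 2 libraries of a material differed in genotype, embryo and preparation together. The remaining 4 RNA-seq libraries were MEFs of each genotype treated with GSK126, an inhibitor of the histone methyltransferase EZH2, and *Dnmt3a* KO and *Dnmt3b* KO 2i-MEFs. The latter are female fibroblasts that descend from ES cells of the F1 cross 129X1/SvJ x MSM/Ms, which had been held in 2i medium. These ES cells were injected into blastocysts, and the fibroblasts were taken from the chimeric embryos. These 4 libraries were not part of the comparison and were only looked up afterwards.

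Throughout, 2 values of a material are given in the order WT and then the library labelled *Dnmt3a* KO. *Dnmt3a* itself was at 26.1 and 85.7 FPKM in MEFs, 55.04 and 125 in heart, and 53.5 and 12.7 in liver. The level was thus lower in the library labelled KO in liver alone, and higher in it in MEFs and heart, so these libraries are called by their labels. The table holds 1 value for the whole gene, which does not show which exons were read. The estimated depth was between 15389500 and 26154000 mapped reads per library, and a single read on 2000 bases of transcript equalled between 0.0212 and 0.036 FPKM. Between 12615 and 13234 genes reached 1 FPKM in a library. Globin transcripts took 6.90% and 6.17% of the summed FPKM in heart and 12.5% and 16.1% in liver, but 0.000585% and 7.25e-05% in MEFs. The sum of FPKM was 709113 and 677171 in MEFs, against between 875386 and 1003370 in the tissues. The median log2 difference between MEFs and the mean of the tissues over all tested genes was -0.03, so the comparison was close to centred without further scaling.

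Fibroblasts are the connective tissue cells that deposit and remodel extracellular matrix. When embryos are dissociated and plated, they attach to a stiff plastic surface, spread, form contractile actin bundles and are stimulated by the growth factors of serum. The E14.5 heart is mainly working cardiomyocytes with endothelium, endocardium and interstitial cells, and the liver at that age is a main site of red blood cell formation around a scaffold of hepatoblasts.

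MEFs lay above all 4 tissue libraries for 4251 genes (26.4%) and below all 4 for 3673 genes (22.8%), and 8172 genes were not separated. With a gap of at least 2-fold in FPKM + 1 between the nearest libraries, 1297 genes (8.06%) lay above and 633 (3.93%) below. A limma test on log2(FPKM + 1), which asked for a difference from heart and from liver in the same direction, called 2421 genes higher (15.0%) and 1768 lower (11.0%) in MEFs at an adjusted p of 0.05, and each called gene was also separated. The largest p-value for each gene was used and adjusted over all 16096 genes. These p-values measure only the spread between the 2 libraries of a material, and an exact permutation test of 2 libraries against 4 cannot go below p = 0.0667. Without the WT heart library the test called 1427 higher and 994 lower genes, and without the heart library labelled *Dnmt3a* KO it called 1461 and 1031. In bulk RNA, fewer cells of a type and less RNA per cell cannot be told apart.

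The distance between MEFs and tissues was larger than the distance between the libraries of a material. In MEFs, 857 genes (5.32%) differed at least 2-fold between the WT library and the library labelled *Dnmt3a* KO, against 558 (3.47%) in heart and 489 (3.04%) in liver. Between a MEF library and a heart library, from 32.0% to 34.6% of the genes differed at least 2-fold, and between a MEF and a liver library from 43.7% to 46.2%. Heart and liver differed from each other at 37.7% to 39.6% of the genes. By the same rule of separation, both heart libraries stood apart from the other 4 at 5740 genes (35.7%) and both liver libraries at 9070 genes (56.3%). MEFs thus stood apart at fewer genes than liver and at more than heart.

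**Figure D1:**
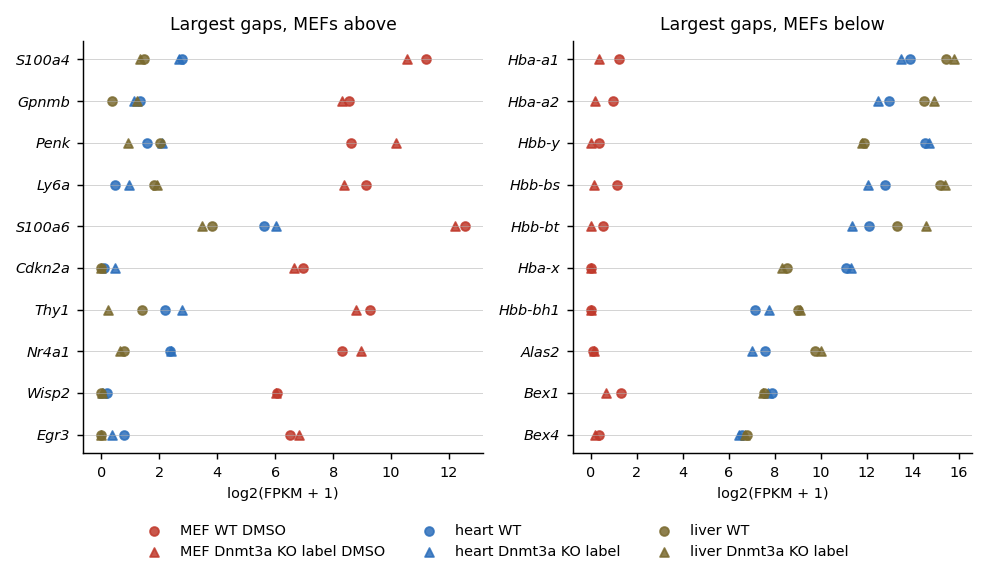
Level of the 10 protein-coding genes with the largest gap above and the 10 with the largest gap below the tissues, as log2(FPKM + 1), in each of the 6 libraries. Circles are WT libraries and triangles libraries labelled *Dnmt3a* KO, with MEFs in red, heart in blue and liver in ochre. In every line the 2 red points stand apart from the other 4.

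The gene with the widest gap upward was *S100a4*, a calcium-binding protein long used to mark fibroblasts (ENSMUSG00000001020, mm10 chr3:90603771-90606045, plus strand). It was at 2367 and 1494 FPKM in MEFs, 5.91 and 5.37 in heart, and 1.77 and 1.52 in liver (log2 difference 8.15 from heart and 9.47 from liver, SE 0.23, adjusted p = 7.14e-05). Its lower MEF value was 253-fold the highest tissue value. *S100a6*, a neighbour of the same family, was at 5943 and 4746 FPKM in MEFs, 47.7 and 63.8 in heart, and 13.2 and 10.2 in liver (log2 difference 6.56 from heart and 8.72 from liver, SE 0.20, adjusted p = 7.91e-05). The 2 genes were thus abundant in both MEF libraries and low in all tissue libraries, without overlap. *Thy1*, a surface glycoprotein of mesenchymal cells, was at 613 and 441 FPKM in MEFs, 3.54 and 5.92 in heart, and 1.65 and 0.177 in liver (log2 difference 6.54 from heart and 8.21 from liver, SE 0.43, adjusted p = 4.14e-04). *Ly6a*, which encodes the surface antigen Sca-1, was at 557 and 333 FPKM in MEFs, 0.386 and 0.944 in heart, and 2.53 and 2.75 in liver (log2 difference 8.04 from heart and 6.89 from liver, SE 0.29, adjusted p = 1.34e-04). Both surface antigens were low in all tissue libraries.

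The other 6 genes at the top belonged to different classes. *Gpnmb*, a transmembrane glycoprotein of macrophages and other lysosome-rich cells, was at 370.1 and 315 FPKM in MEFs, 1.55 and 1.18 in heart, and 0.303 and 1.35 in liver (log2 difference 7.18 from heart and 7.61 from liver, SE 0.30, adjusted p = 1.34e-04). *Penk*, the precursor of enkephalin, was at 387 and 1137 FPKM in MEFs, 1.99 and 3.28 in heart, and 3.08 and 0.902 in liver (log2 difference 7.54 from heart and 7.90 from liver, SE 0.59, adjusted p = 6.97e-04). The MEF libraries differed more from each other in *Penk* than in *Gpnmb*, and in both genes they stood far above the tissues. *Cdkn2a*, the locus of the cell cycle inhibitors p16Ink4a and p19Arf, was at 124 and 99.5 FPKM in MEFs, 0.07598 and 0.373 in heart, and 0 and 0 in liver (log2 difference 6.53 from heart and 6.81 from liver, SE 0.21, adjusted p = 7.91e-05). It was thus listed at 0 in liver and barely detected in heart. *Nr4a1* and *Egr3* are transcription factors of the immediate response to growth factors. *Nr4a1* was at 314 and 500.4 FPKM in MEFs, 4.198 and 4.33 in heart, and 0.704 and 0.564 in liver (log2 difference 6.24 from heart and 7.93 from liver, SE 0.23, adjusted p = 1.11e-04). *Egr3* was at 90.02 and 112 FPKM in MEFs, 0.732 and 0.277 in heart, and 0 and 0 in liver (log2 difference 6.09 from heart and 6.66 from liver, SE 0.22, adjusted p = 1.03e-04). *Wisp2*, a secreted matricellular protein of the CCN family, was at 65.2 and 63.8 FPKM in MEFs, 0.139 and 0.0427 in heart, and 0 and 0.0256 in liver (log2 difference 5.91 from heart and 6.01 from liver, SE 0.16, adjusted p = 7.14e-05). *Nr4a1* and *Egr3* belong to a response and not to a cell type, and they stood among the 10 widest gaps with the surface markers.

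Of the 10 widest gaps downward, 8 were erythroid. The 7 globin genes *Hba-a1*, *Hba-a2*, *Hba-x*, *Hbb-bs*, *Hbb-bt*, *Hbb-y* and *Hbb-bh1* make up the globin share given above, and *Alas2*, the first enzyme of haem synthesis in red cells, was at 191 and 128 FPKM in heart, 849 and 1035 in liver, and 0.0658 and 0.106 in MEFs (log2 difference -7.18 from heart and -9.76 from liver, SE 0.21, adjusted p = 7.91e-05). The adult-type *Hba-a1* was at 15170.5 and 11485 FPKM in heart, 44330.5 and 57575 in liver, and 1.33 and 0.266 in MEFs. The embryonic *Hbb-y* was at 23669.6 and 27151 FPKM in heart, 3830.1 and 3559.8 in liver, and 0.257 and 0 in MEFs. The former was highest in liver and the latter in heart, and both were at or below 1.33 FPKM in MEFs. FPKM was calculated from unique alignments, so reads that fit near-identical globin copies equally well may be left out. Values of single copies, and the share built from them, are thus uncertain. The other 2 genes were not erythroid. *Bex1* was at 234 and 209 FPKM in heart, 187 and 181 in liver, and 1.51 and 0.597 in MEFs (log2 difference -6.79 from heart and -6.53 from liver, SE 0.22, adjusted p = 8.63e-05). *Bex4* was at 95.01 and 85.9 FPKM in heart, 109 and 105 in liver, and 0.262 and 0.123 in MEFs (log2 difference -6.26 from heart and -6.50 from liver, SE 0.13, adjusted p = 4.86e-05). These 2 members of the brain-expressed X-linked family were at similar levels in heart and liver and nearly silent in cultured fibroblasts.

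Among the separated protein-coding genes with the highest level in MEFs, most encode cytoskeleton or matrix. *Vim*, the intermediate filament protein of mesenchyme, was at 5598 and 5395 FPKM in MEFs, 2631 and 2687 in heart, and 259 and 223 in liver (log2 difference 1.05 from heart and 4.51 from liver, SE 0.10, adjusted p = 0.00142). *Actb*, cytoplasmic beta-actin and a common reference gene, was at 4893 and 4788 FPKM in MEFs, 1304 and 1187 in heart, and 2816 and 2510.4 in liver (log2 difference 1.96 from heart and 0.86 from liver, SE 0.10, adjusted p = 0.00253). Neither gene overlapped between MEFs and a tissue library, and liver was nearer to MEFs than heart in *Actb*. *Mgp*, an inhibitor of calcification, was at 1944 and 2425 FPKM in MEFs, 137 and 135 in heart, and 4.58 and 1.31 in liver (log2 difference 3.99 from heart and 9.24 from liver, SE 0.40, adjusted p = 0.0014). *Lgals1*, the galectin of mesenchymal cells, was at 4488 and 3228 FPKM in MEFs, 907 and 882 in heart, and 996 and 999 in liver (log2 difference 2.09 from heart and 1.93 from liver, SE 0.16, adjusted p = 8.36e-04). *Igf2*, a fetal growth factor expressed from the paternal allele, was at 4319.97 and 4746 FPKM in MEFs, 3379 and 3158 in heart, and 1548 and 1226 in liver, above all 4 tissue libraries but without passing the test (adjusted p = 0.0555, limma).

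**Figure D2:**
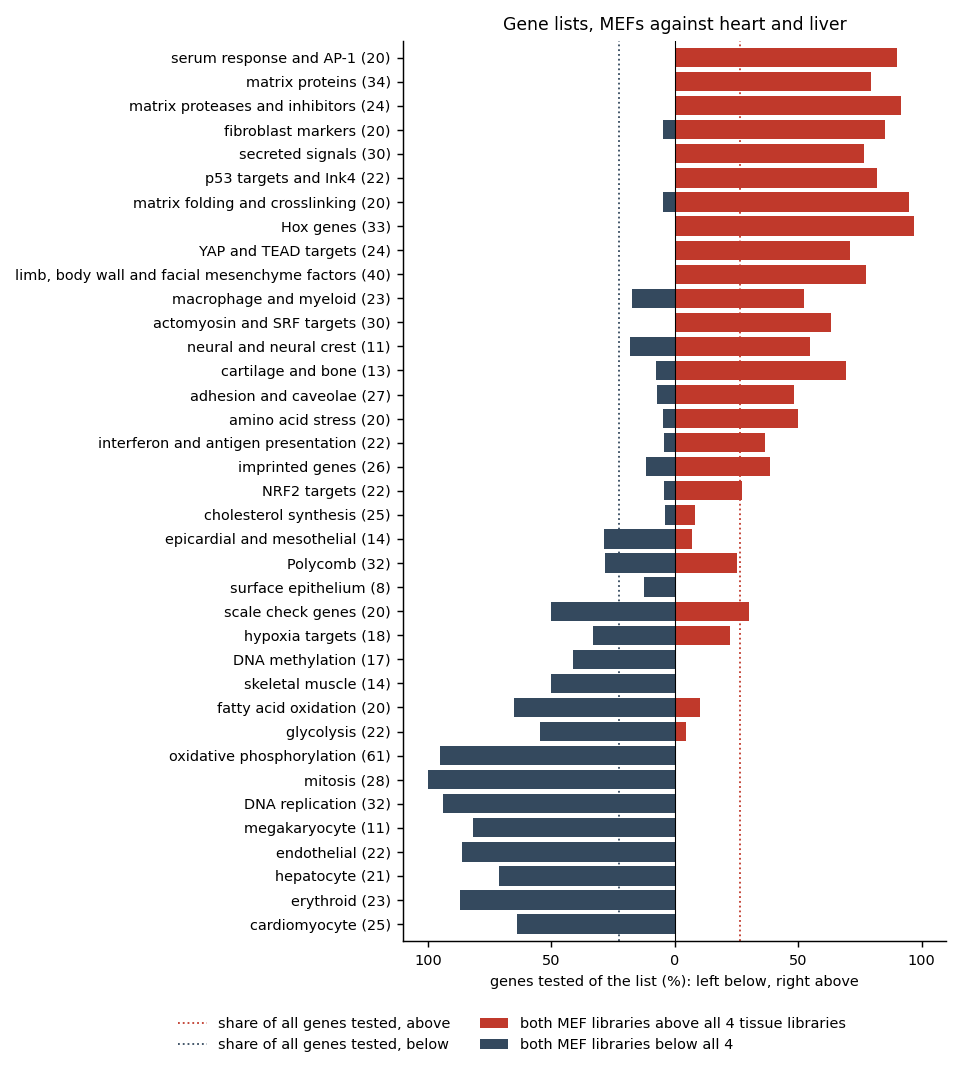
Share of the tested genes of each of 37 gene lists that lay above all 4 tissue libraries in both MEF libraries (red, to the right) or below all 4 (dark, to the left), in percent. Dotted lines mark the share among all tested genes, 26.4% above and 22.8% below.

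Gene lists of cell types and pathways were then counted, each against these shares of all genes. A listed gene had to reach 1 FPKM in only 1 library, and where that was the material in which it is high, it had to differ, so the counts describe the lists and do not test them. Of 20 fibroblast markers, all tested, 17 lay above the tissues and 1 below, with a median log2 difference from the mean of heart and liver of 2.75; limma called 16 higher and 1 lower. Their summed level was 17978 and 14796 FPKM in MEFs, 4102 and 4142 in heart, and 795 and 518 in liver. Both MEF libraries were thus highest in the sum of these markers, while heart also contained a fair amount of these transcripts. *Prrx1*, a homeobox factor of limb and body wall mesenchyme, was at 119 and 126 FPKM in MEFs, 1.91 and 2.31 in heart, and 0.602 and 0.142 in liver (log2 difference 5.31 from heart and 6.51 from liver, SE 0.21, adjusted p = 1.13e-04). *Ddr2*, a collagen receptor, was at 80.1 and 86.4 FPKM in MEFs, 2.04 and 3.02 in heart, and 1.58 and 0.8299 in liver (log2 difference 4.59 from heart and 5.28 from liver, SE 0.23, adjusted p = 2.33e-04). *Pdgfra*, a receptor for platelet-derived growth factor, was at 51.4 and 36.01 FPKM in MEFs, 14.51 and 16.4 in heart, and 5.34 and 4.79 in liver (log2 difference 1.42 from heart and 2.86 from liver, SE 0.20, adjusted p = 0.00424). The exception in the other direction was *Tcf21*, a factor of epicardium-derived and visceral mesenchyme, at 30.4 and 29.8 FPKM in heart, 4.08 and 4.88 in liver, and 0 and 1.21 in MEFs (log2 difference -4.39 from heart and -1.88 from liver, SE 0.37, adjusted p = 0.0144). This call was lost without any 1 of the 4 tissue libraries and with a pseudocount of 0.1. *Cd34* and *Pi16*, which mark adventitial fibroblasts, were not separated.

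**Figure D3:**
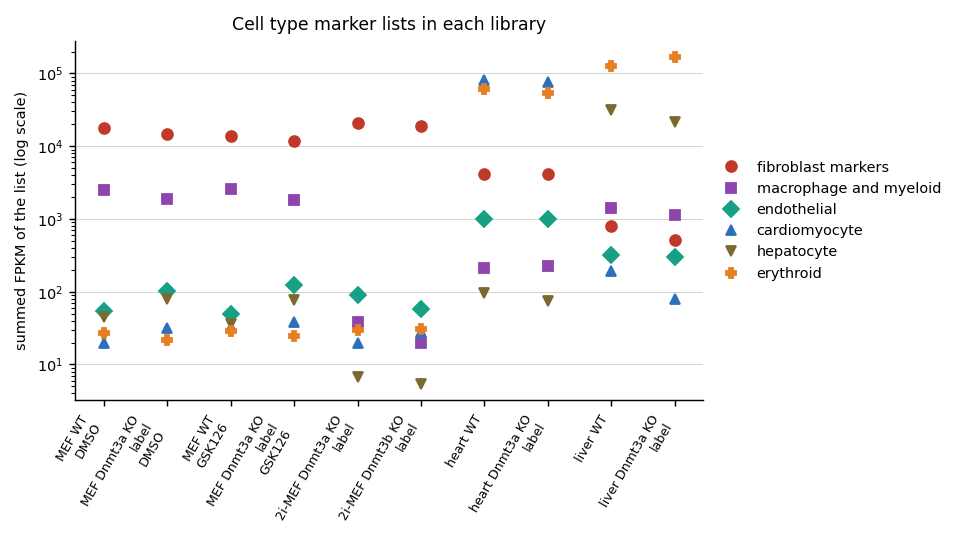
Summed FPKM of 6 lists of cell type markers, on a log scale, in the 10 RNA-seq libraries. The 2 MEF libraries with DMSO are above the tissues in fibroblast markers and below both in the markers of red cells, and their macrophage sum is 2489 and 1911 FPKM, against 38.9 and 19.9 FPKM in the 2i-MEFs.

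The markers of the parenchyma were close to absent from MEFs. Cardiomyocyte markers, 25 of 25 tested, summed to 19.97 and 31.6 FPKM in MEFs, 80868 and 76365 in heart, and 193 and 78.7 in liver, and 16 lay below all tissue libraries. *Myh6*, *Mybpc3*, *Pln*, *Nkx2-5* and *Ckm* were listed at 0 in both MEF libraries. Hepatocyte markers, of which 21 of 25 were tested, summed to 45.3 and 79.6 FPKM in MEFs, 95.6 and 74.1 in heart, and 31584 and 21343 in liver, with 15 below the tissues. Most of the MEF sum was *Trf*, the iron carrier transferrin, at 35.8 and 73.7 FPKM. Erythroid markers summed to 27.4 and 21.4 FPKM in MEFs, 61282 and 54233 in heart, and 126336 and 167863 in liver, and 20 of 23 lay below all 4 tissue libraries. For cardiomyocyte and hepatocyte genes limma called 6 and 3 lower, against 18 erythroid genes. Without 1 library these calls ranged from 3 to 10 for cardiomyocyte genes and from 0 to 7 for hepatocyte genes, fewest of the latter without either MEF library. Of 11 megakaryocyte genes, 9 lay below (6 called lower, and 2 without WT MEF or WT heart).

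Endothelial genes were present in both tissues and mostly low in MEFs. Of 22 markers, 19 lay below the tissues and limma called the same number lower (median log2 difference -3.45). Their sum was 53.96 and 104 FPKM in MEFs, 999 and 993 in heart, and 323 and 305 in liver. *Pecam1*, the adhesion molecule of all endothelium, was at 66.98 and 60.5 FPKM in heart, 13.3 and 13.5 in liver, and 0.137 and 0.0834 in MEFs (log2 difference -5.86 from heart and -3.70 from liver, SE 0.14, adjusted p = 1.11e-04). *Tie1*, *Cldn5*, *Sox17* and *Robo4* were listed at 0 in both MEF libraries. *Eng*, which is also found outside endothelium, was the main exception, at 143 and 131 FPKM in heart, 28.7 and 30.7 in liver, and 9.402 and 64.8 in MEFs. It alone made up most of the higher endothelial sum of the MEF library labelled *Dnmt3a* KO.

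Macrophage genes stood out in the opposite direction. Of 23 macrophage and myeloid markers, 12 lay above all tissue libraries and 4 below, and limma called 11 higher and 2 lower. Without WT MEF it called 6 higher and 1 lower, and without the liver library labelled *Dnmt3a* KO 4 and 1. The 2 lower calls were lost without the MEF library labelled *Dnmt3a* KO or WT liver. Their sum was 2489 and 1911 FPKM in MEFs, 210.1 and 227 in heart, and 1429 and 1143 in liver. *Lyz2*, the lysozyme of macrophages and neutrophils, was at 835 and 802 FPKM in MEFs, 21.5 and 16.5 in heart, and 75.9 and 54.5 in liver (log2 difference 5.37 from heart and 3.65 from liver, SE 0.20, adjusted p = 2.60e-04). *C1qa*, a complement subunit that tissue macrophages make, was at 227 and 142 FPKM in MEFs, 20.9 and 25.9 in heart, and 64.7 and 35.4 in liver (log2 difference 2.90 from heart and 1.89 from liver, SE 0.34, adjusted p = 0.0109). *Cd68*, a lysosomal macrophage protein, was at 185 and 133 FPKM in MEFs, 4.64 and 4.495 in heart, and 18.1 and 13.7 in liver (log2 difference 4.82 from heart and 3.23 from liver, SE 0.21, adjusted p = 4.04e-04). The granulocyte genes went the other way. *Mpo*, of neutrophil granules, was at 2.16 and 0.205 FPKM in heart, 212 and 138 in liver, and 0 and 0 in MEFs. *S100a9*, a calcium-binding protein of neutrophils, was at 2.204 and 9.38 FPKM in heart, 255 and 228 in liver, and 0 and 0 in MEFs (log2 difference -2.53 from heart and -7.92 from liver, SE 0.52, adjusted p = 0.0164). Both were thus listed at 0 in MEFs and high in liver. *Ptprc*, the CD45 antigen of all leukocytes, was at 2.97 and 2.603 FPKM in MEFs, 0.351 and 0.235 in heart, and 3.73 and 2.05 in liver and overlapped with liver.

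These macrophage values did not recur in 2i-MEFs. In 2i-MEFs, the whole list summed to 38.9 and 19.9 FPKM, *Lyz2* was at 15.996 and 11.5 FPKM, *C1qa* at 2.399 and 0.6496 FPKM and *Cd68* at 2.67 and 2.09 FPKM. With 2i-MEFs in place of MEFs, 0 of the 23 genes lay above the tissues. By the study's methods, fibroblasts of this kind were kept in a selecting drug and then sorted for a fluorescent label to take out host cells, and the part of that selection in the low values was not tested. In the GSK126-treated MEFs the list summed to 2548 and 1805 FPKM, close to the DMSO libraries. *Gpnmb*, named above among the widest gaps and also a macrophage product, was at 56.8 and 44.5 FPKM in 2i-MEFs, and *Csf1*, the growth factor of macrophages, was at 95.6 and 155 FPKM in MEFs, 6.92 and 7.56 in heart, and 6.94 and 9.26 in liver (log2 difference 3.90 from heart and 3.77 from liver, SE 0.26, adjusted p = 4.62e-04). The share of MEF transcripts that came from macrophages in the culture was not tested.

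Extracellular matrix genes were above the tissues. Of 34 matrix proteins, 27 lay above and 0 below, limma called 24 higher, and the median log2 difference was 3.28. Their summed level was 23574 and 23077 FPKM in MEFs, 5005 and 5151 in heart, and 1370.5 and 925 in liver. *Col1a1*, which encodes the main chain of type I collagen, was at 4281 and 3475 FPKM in MEFs, 405 and 373 in heart, and 79.1 and 52.1 in liver (log2 difference 3.31 from heart and 5.89 from liver, SE 0.21, adjusted p = 4.05e-04). *Col3a1*, of type III collagen, was at 3833 and 2754 FPKM in MEFs, 574 and 614 in heart, and 289 and 119 in liver (log2 difference 2.45 from heart and 4.13 from liver, SE 0.41, adjusted p = 0.00793). *Sparc*, a collagen-binding protein, was at 2626 and 3117 FPKM in MEFs, 779.6 and 754 in heart, and 127 and 94.2 in liver (log2 difference 1.90 from heart and 4.70 from liver, SE 0.17, adjusted p = 9.62e-04). The fibrillar collagens were already plentiful in heart and less so in liver, and both MEF libraries exceeded both organs. Against heart, *Col12a1* and *Thbs1*, both less abundant than these genes, had larger differences. *Col12a1*, a collagen of fibril surfaces under tension, was at 154 and 349 FPKM in MEFs, 4.99 and 4.47 in heart, and 1.79 and 0.3599 in liver (log2 difference 5.34 from heart and 6.90 from liver, SE 0.48, adjusted p = 0.00102). *Thbs1*, which activates latent TGF-beta, was at 640.2 and 1549 FPKM in MEFs, 15.6 and 13.8 in heart, and 43.2 and 28.1 in liver (log2 difference 5.99 from heart and 4.80 from liver, SE 0.43, adjusted p = 0.001). In both, the MEF library labelled *Dnmt3a* KO was the higher one.

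Other matrix genes were not separated, among them genes of the basement membrane. *Col4a1*, the main chain of its collagen, was at 456 and 517 FPKM in MEFs, 513 and 503 in heart, and 105 and 68.5 in liver. *Lamb1*, a laminin chain, was at 101 and 89.4 FPKM in MEFs, 109.8 and 105 in heart, and 7.403 and 5.38 in liver. In these genes, and in *Col4a2*, *Col15a1* and *Col18a1*, heart reached or exceeded the MEF libraries. *Eln*, the elastin gene, was at 63.3 and 317 FPKM in MEFs, 218 and 286 in heart, and 7.82 and 3.82 in liver, with heart between the MEF libraries. *Col14a1* stayed between 15.4 and 34.8 FPKM in all 6 libraries.

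The enzymes that fold, modify and crosslink collagen lay on the same side. Of 20, 19 lay above the tissues and limma called 18 higher (median log2 difference 2.40). *Lox*, which crosslinks collagen and elastin outside the cell, was at 465 and 519 FPKM in MEFs, 10.7 and 12.4 in heart, and 3.11 and 1.7997 in liver (log2 difference 5.30 from heart and 7.18 from liver, SE 0.21, adjusted p = 1.13e-04). *Serpinh1*, the collagen chaperone HSP47, was at 1256 and 1351 FPKM in MEFs, 655 and 576 in heart, and 128 and 103 in liver (log2 difference 1.08 from heart and 3.50 from liver, SE 0.14, adjusted p = 0.00307). *Pcolce*, which enhances the removal of the collagen propeptide, was at 1028 and 926 FPKM in MEFs, 105 and 97.7 in heart, and 25.6 and 18.98 in liver (log2 difference 3.26 from heart and 5.404 from liver, SE 0.16, adjusted p = 2.22e-04). All 3 prolyl 4-hydroxylase genes *P4ha1*, *P4ha2* and *P4ha3* and all 3 lysyl hydroxylase genes *Plod1*, *Plod2* and *Plod3* were called higher. *Tgm2*, a transglutaminase that crosslinks proteins by another chemistry, was the only member below, at 405 and 357 FPKM in heart, 132 and 141 in liver, and 14.3 and 10.2 in MEFs (log2 difference -4.87 from heart and -3.40 from liver, SE 0.17, adjusted p = 2.32e-04).

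Matrix-degrading proteases and their inhibitors were above the tissues together. Of 26 listed genes, 24 were tested, 22 lay above and 0 below, and limma called all 22 higher (median log2 difference 3.06). *Mmp14*, the membrane-bound collagenase, was at 508 and 549 FPKM in MEFs, 80.1 and 76.6 in heart, and 38.3 and 32.3 in liver (log2 difference 2.74 from heart and 3.87 from liver, SE 0.12, adjusted p = 1.53e-04). *Timp2*, an inhibitor that also helps MMP14 to activate MMP2, was at 1183 and 1219 FPKM in MEFs, 60.9 and 63.2 in heart, and 12.2 and 5.92 in liver (log2 difference 4.25 from heart and 6.97 from liver, SE 0.29, adjusted p = 4.59e-04). The protease and the inhibitor were thus high in the same 2 libraries. *Mmp3*, stromelysin, was at 2.08 and 1.76 FPKM in MEFs and was listed at 0 in all tissue libraries. *Mmp9* and *Mmp19* were as high in liver as in MEFs.

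**Figure D4:**
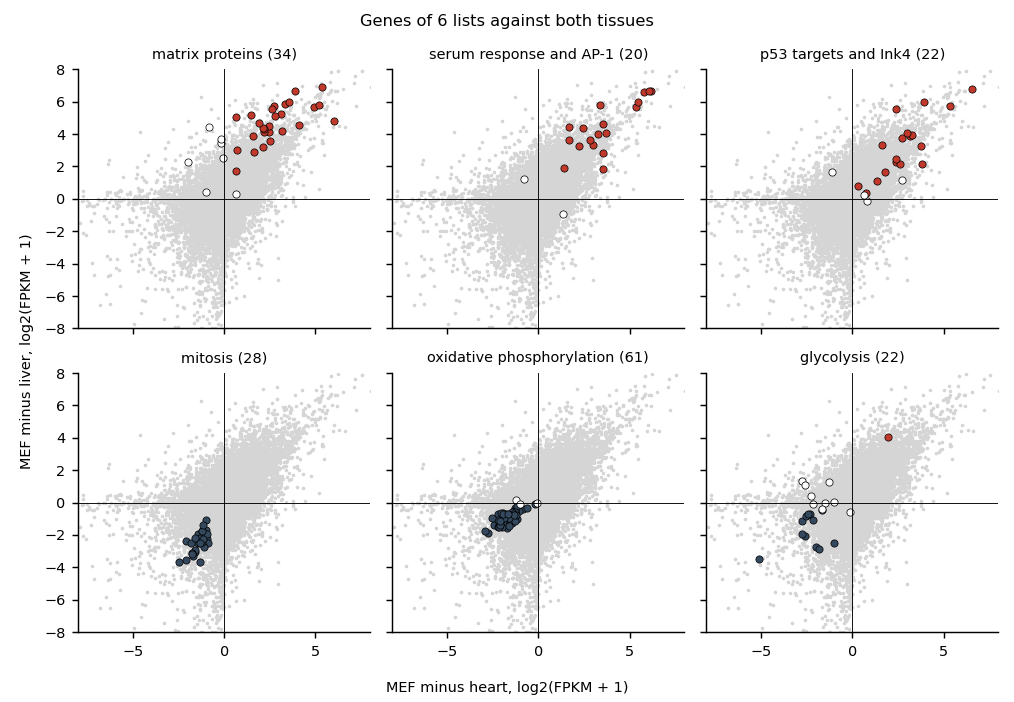
Difference of each gene between the mean of the MEF libraries and heart (x axis) or liver (y axis), in log2(FPKM + 1), in 6 panels of gene lists over all tested genes in grey. Red points lay above all 4 tissue libraries, dark points below and white points were not separated, and genes beyond the axes are not drawn. The matrix, serum response and p53 panels fill the upper right, and mitosis and oxidative phosphorylation the lower left.

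Genes of contraction and of the actin cytoskeleton differed by less than matrix genes, and several were highest in heart. Of 30 genes of the actomyosin apparatus and of serum response factor (SRF), 19 lay above and 0 below, and limma called 16 higher (median log2 difference 1.53). Without the liver library labelled *Dnmt3a* KO 2 lay below. The 16 calls fell to 8 without WT heart, 9 without the MEF library labelled *Dnmt3a* KO and 10 without the heart library labelled *Dnmt3a* KO. *Flna*, the actin crosslinker filamin A, was at 739.8 and 863 FPKM in MEFs, 231 and 229 in heart, and 148 and 117 in liver (log2 difference 1.79 from heart and 2.59 from liver, SE 0.15, adjusted p = 7.51e-04). *Cald1*, caldesmon, was at 388 and 562 FPKM in MEFs, 60.1 and 59.7 in heart, and 61.2 and 59.9 in liver (log2 difference 2.94 from heart and 2.93 from liver, SE 0.18, adjusted p = 3.75e-04). *Vcl*, which links actin to adhesions, was at 142 and 192 FPKM in MEFs, 53.3 and 74.2 in heart, and 30.6 and 24.5 in liver (log2 difference 1.38 from heart and 2.55 from liver, SE 0.23, adjusted p = 0.00768). *Acta2*, smooth muscle actin and the marker of myofibroblasts, was at 1304 and 1771 FPKM in MEFs, 1176 and 876 in heart, and 26.9 and 15.8 in liver, above both tissues but close to WT heart and not called (adjusted p = 0.242, limma). *Tpm1*, *Myl9*, *Des* and *Cnn1* were highest in heart.

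SRF binds the CArG box, a short A/T-rich element between CC and GG. It was searched on both strands in the RefSeq promoter windows (GRCm38.p6, the build of mm10) from 250 bases before to 50 after the start of each gene. Windows were found for 26 of the 30 genes, and 5 of them (19.2%) held it, *Cnn2*, *Myl9*, *Vcl*, *Srf* and *Actg1*, against 1.32% of the 11249 windows of the genes tested and 1.57% of the 27025 windows of all symbols. The promoters of the 3 of them that lay above all tissue libraries are shown from 250 bases to 1 base before the start, with the box in capitals. *Actg1* (chr11:120348496-120348745, minus strand), *Vcl* (chr14:20929148-20929397, plus strand) and *Cnn2* (chr10:79988350-79988599, plus strand) had it 90, 227 and 56 bases before the start.
Actg1: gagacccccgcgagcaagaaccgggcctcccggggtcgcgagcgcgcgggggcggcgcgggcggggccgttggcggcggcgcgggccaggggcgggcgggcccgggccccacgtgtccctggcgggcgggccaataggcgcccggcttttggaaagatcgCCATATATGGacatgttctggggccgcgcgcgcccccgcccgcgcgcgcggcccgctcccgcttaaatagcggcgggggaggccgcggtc
Vcl: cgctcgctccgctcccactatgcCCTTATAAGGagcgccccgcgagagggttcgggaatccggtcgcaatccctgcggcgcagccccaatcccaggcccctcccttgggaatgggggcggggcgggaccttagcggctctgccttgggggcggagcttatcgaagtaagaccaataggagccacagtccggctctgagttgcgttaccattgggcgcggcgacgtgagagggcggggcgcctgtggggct
Cnn2: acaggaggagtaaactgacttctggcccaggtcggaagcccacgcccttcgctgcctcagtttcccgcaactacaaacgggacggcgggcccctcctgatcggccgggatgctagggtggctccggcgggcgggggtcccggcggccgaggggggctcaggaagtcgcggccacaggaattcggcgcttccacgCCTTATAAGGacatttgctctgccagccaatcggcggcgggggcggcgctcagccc
*Actg1*, cytoplasmic gamma-actin, was at 1471 and 1869.8 FPKM in MEFs, 578 and 597 in heart, and 541 and 692 in liver (log2 difference 1.495 from heart and 1.44 from liver, SE 0.17, adjusted p = 0.0023). *Cnn2*, calponin 2, was at 428 and 477 FPKM in MEFs, 267 and 223 in heart, and 64.7 and 45.6 in liver (log2 difference 0.89 from heart and 3.03 from liver, SE 0.19, adjusted p = 0.0197). These genes, with *Vcl* above, differed from the tissues by less than most matrix genes. *Srf* itself, at 23.1 and 42.4 FPKM in MEFs, 43.2 and 41.9 in heart, and 14.96 and 11.004 in liver, and *Myl9* carried the box too and were not separated. Cardiomyocyte genes, of which 16 lay below the tissues and 0 above, held the box in 4 of 24 windows (16.7%). Of all genes above the tissues 1.38% of windows held it, against 1.28% of those below. A match shows the letters alone and no binding.

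YAP and its partner TEAD are turned on by spreading and by tension in the cell. Of 24 of their known target genes, 17 lay above the tissues and 0 below, and limma called 14 higher (median log2 difference 2.01). *Cyr61*, a matricellular protein and a standard readout of YAP, was at 988 and 1414 FPKM in MEFs, 19.5 and 18.99 in heart, and 5.07 and 3.42 in liver (log2 difference 5.87 from heart and 7.84 from liver, SE 0.23, adjusted p = 1.13e-04). *Ctgf*, of the same family, was at 312 and 577 FPKM in MEFs, 56.3 and 55.6 in heart, and 2.53 and 1.62 in liver (log2 difference 2.90 from heart and 7.13 from liver, SE 0.31, adjusted p = 0.00168). The third standard readout, *Ankrd1*, was a heart gene here, at 491 and 553 FPKM in heart, 0.512 and 0.323 in liver, and 3.41 and 7.81 in MEFs. *F3*, tissue factor, was at 36.2 and 95.02 FPKM in MEFs, 2.15 and 1.9002 in heart, and 0.166 and 0.133 in liver (log2 difference 4.31 from heart and 5.70 from liver, SE 0.43, adjusted p = 0.00141). *Amotl2*, a feedback inhibitor of YAP, was at 200.05 and 275 FPKM in MEFs, 77.3 and 69.2 in heart, and 11.7 and 8.58 in liver (log2 difference 1.67 from heart and 4.42 from liver, SE 0.21, adjusted p = 0.00289). The TEAD motif GGAATG, on either strand, was in 8 of 17 windows of the list (47.1%), in 12 of 26 of the actomyosin genes (46.2%), in 12.3% of the windows of the genes tested and in 14.6% of all windows.

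Adhesion genes were mixed. Of 27 genes of adhesion and caveolae, 13 lay above and 2 below, and limma called 9 higher and 0 lower (median log2 difference 0.95). Without the WT MEF library 4 lay below and the median was 1.47. *Itgav*, the integrin chain that binds fibronectin and vitronectin, was at 59.1 and 64.3 FPKM in MEFs, 4.78 and 7.18 in heart, and 6.59 and 5.82 in liver (log2 difference 3.19 from heart and 3.12 from liver, SE 0.20, adjusted p = 4.00e-04). *Itga11*, a receptor for fibrillar collagen, was at 18.8 and 28.7 FPKM in MEFs, 0.518 and 1.23 in heart, and 0.192 and 0.181 in liver (log2 difference 3.72 from heart and 4.35 from liver, SE 0.29, adjusted p = 6.58e-04). *Itgb1*, their common partner chain in many receptors, was at 308 and 358 FPKM in MEFs, 171 and 169 in heart, and 96.6 and 96.98 in liver (log2 difference 0.96 from heart and 1.77 from liver, SE 0.11, adjusted p = 0.00204). All 3 chains were higher in both MEF libraries than in any tissue library. The cytoplasmic plaque genes *Pxn*, *Tln1* and *Ilk* were within the range of the tissues. *Itga6*, a laminin receptor chain, was at 22.8 and 19.04 FPKM in MEFs, 73.6 and 71.02 in heart, and 13.7 and 12.4 in liver, highest in heart.

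Genes that serum induces within minutes differed by as much as the matrix. Of 20 serum response and AP-1 genes, 18 lay above the tissues and none below, all 18 were called higher, and the median log2 difference was 3.32. The sum was 1891 and 2838 FPKM in MEFs, 371 and 381 in heart, and 295 and 287 in liver. *Fos*, a subunit of the AP-1 factor, was at 106 and 219.9 FPKM in MEFs, 2.61 and 1.1997 in heart, and 0.5998 and 0.551 in liver (log2 difference 5.77 from heart and 6.61 from liver, SE 0.40, adjusted p = 4.62e-04). *Fosb*, its relative, was at 78.8 and 137 FPKM in MEFs, 0.143 and 0.802 in heart, and 0.0428 and 0.0437 in liver (log2 difference 6.19 from heart and 6.65 from liver, SE 0.34, adjusted p = 2.63e-04). *Egr1*, a zinc finger factor induced by the same route, was at 242 and 353 FPKM in MEFs, 6.51 and 5.804 in heart, and 4.89 and 4.48 in liver (log2 difference 5.36 from heart and 5.69 from liver, SE 0.20, adjusted p = 1.11e-04). In all 3 genes the MEF library labelled *Dnmt3a* KO was higher than the WT library, and both were far above the tissues. *Jun* was at 108 and 129.97 FPKM in MEFs, 36.9 and 34.6 in heart, and 5.47 and 3.72 in liver (log2 difference 1.70 from heart and 4.43 from liver, SE 0.19, adjusted p = 0.00202). *Dusp1*, a phosphatase that ends the MAP kinase signal, was at 87.4 and 215 FPKM in MEFs, 10.4 and 11.02 in heart, and 18.6 and 18.01 in liver (log2 difference 3.56 from heart and 2.84 from liver, SE 0.39, adjusted p = 0.00413). *Jund*, at 91.8 and 96.7 FPKM in MEFs, 154 and 169 in heart, and 38.4 and 40.5 in liver, was highest in heart, and *Myc*, at 34.4 and 35.3 FPKM in MEFs, 11.5 and 14.2 in heart, and 72.6 and 64.5 in liver, was highest in liver. These 2 genes were the ones not separated.

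The serum response genes were lower in the other fibroblasts made from ES cells. In 2i-MEFs the list summed to 663 and 518 FPKM, against 1942 and 2820 FPKM in the GSK126-treated MEFs. *Fos* was at 71.5 and 15.5 FPKM and *Nr4a1* at 11.5 and 8.78 FPKM in 2i-MEFs. The time between the last change of medium and the harvest is not given in the sources used here. Of the list's 14 promoter windows, 1 (7.14%) held a CArG box and 0 held the AP-1 motif TGANTCA, against 1.32% and 4.97% of the windows of the genes tested and 1.57% and 7.93% of all windows. In 14 windows such low shares give few matches or none.

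Inhibitors of the cell cycle and targets of p53 were also above the tissues. Of 22 such genes, 18 lay above and 0 below, and limma called 16 higher (median log2 difference 2.45). *Cdkn1a*, the inhibitor p21 and a main target of p53, was at 426 and 484 FPKM in MEFs, 26.6 and 31.9 in heart, and 8.57 and 4.41 in liver (log2 difference 3.92 from heart and 5.98 from liver, SE 0.28, adjusted p = 5.04e-04). *Cdkn2b*, the inhibitor p15 next to *Cdkn2a*, was at 61.2 and 62.5 FPKM in MEFs, 0.8404 and 0.326 in heart, and 0.128 and 0.228 in liver (log2 difference 5.33 from heart and 5.74 from liver, SE 0.21, adjusted p = 1.13e-04). *Cdkn2a* had been among the 10 widest gaps of all genes. In 2i-MEFs *Cdkn2a* was at 66.8 and 101 FPKM and *Cdkn1a* at 164 and 201 FPKM. *Phlda3*, a p53 target that restrains AKT, was at 282 and 310.3 FPKM in MEFs, 56.99 and 54.8 in heart, and 6.86 and 3.93 in liver (log2 difference 2.38 from heart and 5.57 from liver, SE 0.23, adjusted p = 0.00119). *Bax*, a driver of apoptosis, was at 646 and 758 FPKM in MEFs, 195 and 211 in heart, and 256 and 185 in liver (log2 difference 1.78 from heart and 1.68 from liver, SE 0.18, adjusted p = 0.00168). *Cdkn2c*, *Sesn1*, *Gdf15* and *Perp* were not separated.

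Cell division genes lay on the other side without exception. All 28 mitosis genes were below all 4 tissue libraries in both MEF libraries, and limma called 28 lower (median log2 difference -1.88). The sum was 553 and 528 FPKM in MEFs, 1626 and 1622 in heart, and 3498 and 3491 in liver. By the mean of the 2 libraries, liver was highest, heart next and MEFs lowest for all 28 genes. *Cdk1*, the kinase that starts mitosis, was at 197 and 212 FPKM in heart, 336 and 358 in liver, and 86.8 and 71.03 in MEFs (log2 difference -1.37 from heart and -2.13 from liver, SE 0.13, adjusted p = 0.00113). *Ube2c*, a ubiquitin enzyme of the anaphase complex, was at 222 and 217 FPKM in heart, 507 and 490.4 in liver, and 39.9 and 37.005 in MEFs (log2 difference -2.49 from heart and -3.66 from liver, SE 0.09, adjusted p = 1.11e-04). *Top2a*, which untangles sister chromatids, was at 95.2 and 101 FPKM in heart, 227 and 224 in liver, and 41.2 and 38.1 in MEFs (log2 difference -1.28 from heart and -2.48 from liver, SE 0.10, adjusted p = 6.67e-04). *Mki67*, the antigen Ki-67, was at 39.8 and 38.8 FPKM in heart, 184 and 209.7 in liver, and 17.3 and 12.7 in MEFs (log2 difference -1.35 from heart and -3.64 from liver, SE 0.17, adjusted p = 0.00282). In each of these genes the 3 materials did not overlap. The erythroid markers followed the same order of materials, with the sums given above, and their part in the mitosis result was not tested.

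Many of these genes share promoter elements that bring their transcription to the end of the cycle, the CCAAT box, bound by NF-Y, and the CHR element TTTGAA. Of 22 promoter windows of the list, 19 (86.4%) held CCAAT and 17 (77.3%) held TTTGAA on either strand, against 38.4% and 11.9% of the windows of the genes tested and 37.9% and 18.1% of all windows. The 2 elements occurred together in 16 of the 22, in 4.93% of the windows of the genes tested and in 7.12% of all windows. The promoters of *Cdk1* (chr10:69352913-69353162, minus strand), *Ube2c* (chr2:164769679-164769928, plus strand) and *Top2a* (chr11:99024190-99024439, minus strand) are shown from 250 bases to 1 base before the start because they hold several copies, in capitals.
Cdk1: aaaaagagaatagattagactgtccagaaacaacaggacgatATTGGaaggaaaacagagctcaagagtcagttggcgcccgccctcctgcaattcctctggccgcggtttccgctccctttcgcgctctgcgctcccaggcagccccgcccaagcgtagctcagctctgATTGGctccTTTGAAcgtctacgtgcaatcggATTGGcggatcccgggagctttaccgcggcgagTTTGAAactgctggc
Ube2c: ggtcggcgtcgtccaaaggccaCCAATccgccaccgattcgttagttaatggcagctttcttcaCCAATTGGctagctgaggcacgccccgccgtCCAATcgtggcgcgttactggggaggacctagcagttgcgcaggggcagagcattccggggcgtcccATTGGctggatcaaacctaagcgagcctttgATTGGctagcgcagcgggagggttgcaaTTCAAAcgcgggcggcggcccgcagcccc
Top2a: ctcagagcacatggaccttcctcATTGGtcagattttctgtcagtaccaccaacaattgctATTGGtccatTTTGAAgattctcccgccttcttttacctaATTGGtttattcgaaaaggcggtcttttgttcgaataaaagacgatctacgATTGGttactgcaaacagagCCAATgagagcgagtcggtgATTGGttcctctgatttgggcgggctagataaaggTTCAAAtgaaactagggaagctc
*Cdk1* had 3 CCAAT boxes and 2 CHR elements, *Ube2c* had 6 boxes and 1 element and *Top2a* had 6 boxes and 2 elements. The boxes of *Ube2c* 186 and 183 bases before the start overlap, since the letters read as a box on both strands. Of the genes above the tissues as a whole, 9.99% of 3033 windows held TTTGAA, and of the genes below, 14.9% of 2744, against 11.9% of the 11249 windows of the genes tested. For genes with a gap of at least 2-fold the shares were 12.5% above and 16.6% below.

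Replication genes followed. Of 32, 30 lay below the tissues and 0 above, and limma called 28 lower (median log2 difference -2.09). *Mcm5*, of the replicative helicase, was at 65.5 and 62.8 FPKM in heart, 274 and 256 in liver, and 19.8 and 15.8 in MEFs (log2 difference -1.80 from heart and -3.83 from liver, SE 0.14, adjusted p = 6.25e-04). *Cdc6*, which loads the helicase, was at 9.57 and 8.38 FPKM in heart, 61.5 and 61.4 in liver, and 1.82 and 1.54 in MEFs (log2 difference -1.90 from heart and -4.54 from liver, SE 0.14, adjusted p = 6.32e-04). *Pcna*, the sliding clamp, was at 64.5 and 59.8 FPKM in heart, 240.2 and 303 in liver, and 33.9 and 31.2 in MEFs (log2 difference -0.91 from heart and -3.01 from liver, SE 0.14, adjusted p = 0.00633). Liver was again highest and MEFs lowest, with no overlap. *Pola1* and *Ccne1* were the exceptions, with MEF values that reached those of heart. Mitosis genes summed to 521 and 430.2 FPKM in 2i-MEFs and to 341 and 301 FPKM in the GSK126-treated MEFs, all below the tissues.

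Transcripts of oxidative phosphorylation were lower in MEFs. Of 61 genes of oxidative phosphorylation, 58 lay below the tissues and 0 above, and limma called 53 lower (median log2 difference -1.33). The sum was 16526 and 14703 FPKM in MEFs, 49709.5 and 50679 in heart, and 28268 and 29349 in liver. *Cycs*, cytochrome c, was at 247 and 232 FPKM in heart, 105 and 114 in liver, and 29.97 and 32.5 in MEFs (log2 difference -2.90 from heart and -1.77 from liver, SE 0.11, adjusted p = 3.42e-04). *Atp5b*, the catalytic subunit of ATP synthase, was at 4966 and 5083 FPKM in heart, 3358 and 2962 in liver, and 1258 and 1139.5 in MEFs (log2 difference -2.07 from heart and -1.40 from liver, SE 0.11, adjusted p = 6.51e-04). *Ndufb8*, a subunit of complex I, was at 958 and 981 FPKM in heart, 443 and 473 in liver, and 181 and 172 in MEFs (log2 difference -2.45 from heart and -1.37 from liver, SE 0.09, adjusted p = 4.17e-04). *Uqcrc2*, of complex III, was at 462 and 426 FPKM in heart, 246 and 311 in liver, and 98.8 and 93.9 in MEFs (log2 difference -2.19 from heart and -1.51 from liver, SE 0.14, adjusted p = 0.00105). Heart was highest in all 4 genes, liver came next and MEFs were lowest. *Ndufa1* and *Ndufa13* were not separated. Cardiomyocyte markers were also highest in heart and lowest in MEFs, and their part in this order was not tested. With 2i-MEFs in place of MEFs, 59 lay below.

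For part of the pathway, glycolysis transcripts were lower too. Of 22 genes, 12 lay below and 1 above, and limma called 10 lower and 1 higher (median log2 difference -1.32). The sum was 5796 and 3906 FPKM in MEFs, 22172 and 21660.4 in heart, and 6831 and 6811 in liver. *Slc2a1*, the glucose carrier GLUT1, was at 161 and 165 FPKM in heart, 279.9 and 287 in liver, and 38.6 and 43.4 in MEFs (log2 difference -1.97 from heart and -2.76 from liver, SE 0.10, adjusted p = 2.42e-04). *Hk1*, the main hexokinase, was at 260.4 and 261 FPKM in heart, 185 and 173 in liver, and 50.02 and 35.9 in MEFs (log2 difference -2.59 from heart and -2.05 from liver, SE 0.17, adjusted p = 7.41e-04). *Gapdh*, often used as a reference gene, was at 7469.6 and 7082 FPKM in heart, 2052 and 2290.1 in liver, and 1543 and 1009 in MEFs (log2 difference -2.54 from heart and -0.80 from liver, SE 0.20, adjusted p = 0.0363). *Slc16a3*, the lactate exporter MCT4, was at 193 and 177 FPKM in heart, 64.5 and 56.2 in liver, and 5.89 and 3.299 in MEFs (log2 difference -5.09 from heart and -3.49 from liver, SE 0.23, adjusted p = 4.36e-04). Heart was the highest of the 3 materials in most of the pathway, and MEFs and liver overlapped in *Gpi1*, *Eno1* and *Pgam1*. *Eno2*, the neuronal enolase, was the only member called higher, at 15.9 and 22.3 FPKM in MEFs, 3.27 and 5.25 in heart, and 0.284 and 0.0901 in liver (log2 difference 1.94 from heart and 4.07 from liver, SE 0.27, adjusted p = 0.00418). *Gapdh* and *Actb* lay on opposite sides, so that a ratio to either would move with the material.

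Fatty acid oxidation, for which 20 genes were tested, had 13 below and 2 above (8 called lower and 2 higher, median log2 difference -0.87). *Hadha*, of the trifunctional enzyme, was at 494 and 512 FPKM in heart, 291 and 314 in liver, and 214 and 177 in MEFs (log2 difference -1.37 from heart and -0.64 from liver, SE 0.12, adjusted p = 0.0126). *Acaa2*, the last enzyme of the spiral, was at 222 and 219.7 FPKM in heart, 185 and 189 in liver, and 64.4 and 51.03 in MEFs (log2 difference -1.93 from heart and -1.69 from liver, SE 0.13, adjusted p = 6.75e-04). *Cpt1a*, which admits fatty acids to the mitochondrion, was at 37.6 and 33.2 FPKM in MEFs, 17.1 and 16.6 in heart, and 10.2 and 7.96 in liver (log2 difference 1.03 from heart and 1.86 from liver, SE 0.16, adjusted p = 0.00587). *Cd36*, a fatty acid receptor that macrophages also carry, was at 51.2 and 55.6 FPKM in MEFs, 33.2 and 30.2 in heart, and 13.6 and 16.4 in liver (log2 difference 0.74 from heart and 1.77 from liver, SE 0.14, adjusted p = 0.0124), and at 0.732 and 0.435 FPKM in 2i-MEFs. The 8 lower calls fell to 4 without WT heart or WT liver and to 5 without the liver library labelled *Dnmt3a* KO. The 2 higher calls were lost without either heart library, and 1 was left without the MEF library labelled *Dnmt3a* KO.

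**Figure D5:**
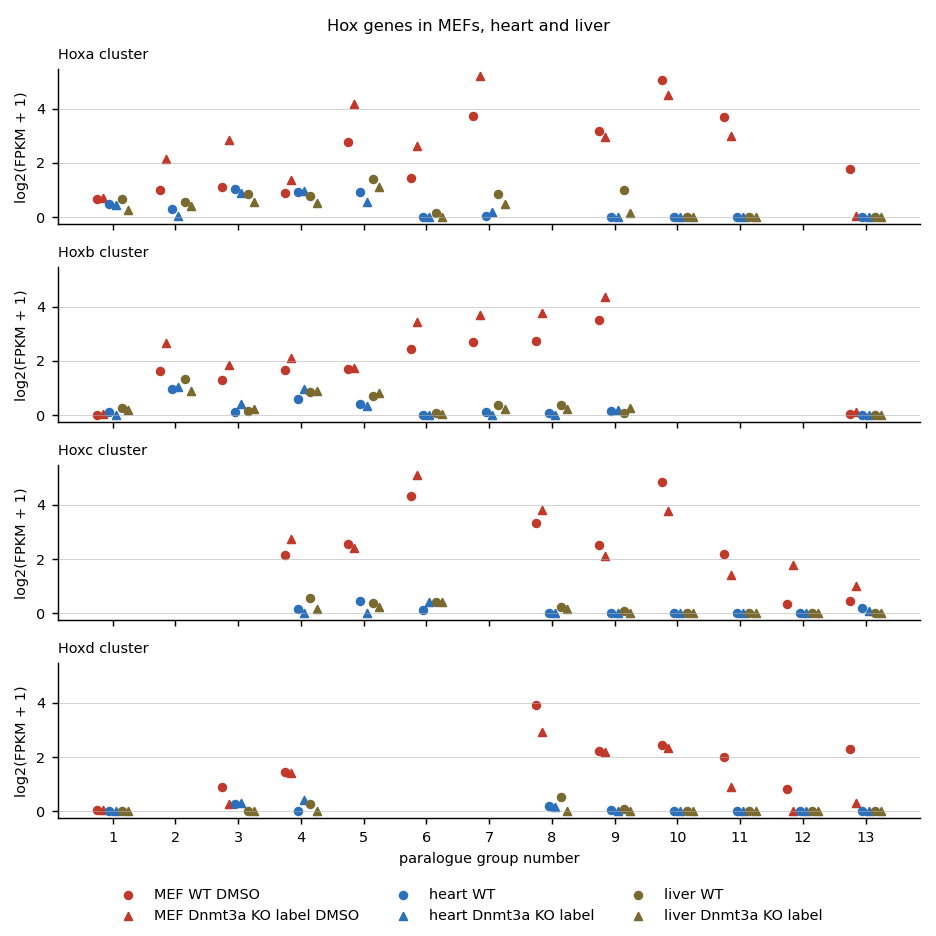
Level of the Hox genes as log2(FPKM + 1) in the 6 libraries, by cluster and by paralogue group number from the 3′ end (1) to the 5′ end (13) of the cluster. MEF values in red lie above those of heart and liver for 32 of 33 tested genes.

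Hox genes record where along the body a cell came from, with low numbers in the neck and high numbers in the tail and the distal limb. Of 39 listed genes, 33 were tested, 32 lay above all tissue libraries and limma called 25 higher (median log2 difference 2.21). The sum was 217 and 266 FPKM in MEFs, 6.87 and 6.73 in heart, and 12.3 and 7.24 in liver. *Hoxa10* was at 32.4 and 21.7 FPKM in MEFs, 0 and 0 in heart, and 0 and 0 in liver. *Hoxc6* was at 19.1 and 33.1 FPKM in MEFs, 0.0764 and 0.329 in heart, and 0.332 and 0.345 in liver (log2 difference 4.45 from heart and 4.29 from liver, SE 0.29, adjusted p = 4.45e-04). *Hoxb9* was at 10.3 and 19.6 FPKM in MEFs, 0.102 and 0.157 in heart, and 0.0643 and 0.214 in liver (log2 difference 3.76 from heart and 3.75 from liver, SE 0.31, adjusted p = 7.87e-04). *Hoxd8* was at 14.02 and 6.59 FPKM in MEFs, 0.148 and 0.125 in heart, and 0.428 and 0 in liver (log2 difference 3.23 from heart and 3.16 from liver, SE 0.37, adjusted p = 0.00227). Tested genes of all 4 clusters in groups 6 to 11 were thus present in MEFs and at or below 1.01 FPKM in heart and liver. In groups 2 to 4, MEF levels reached at most 6.22 FPKM. *Hoxa4* was not separated, at 0.838 and 1.596 FPKM in MEFs, 0.908 and 0.977 in heart, and 0.739 and 0.446 in liver.

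The 2 MEF libraries differed in which Hox genes were high. *Hoxa13*, of the most distal limb, was at 2.46 and 0.0356 FPKM, and *Hoxd13* at 3.898 and 0.222 FPKM, with both listed at 0 in heart and liver. *Hoxa7*, of the trunk, was at 12.3 and 35.5 FPKM, and *Hoxa3* at 1.16 and 6.22 FPKM. The WT library was thus higher in the former pair and the library labelled *Dnmt3a* KO in the latter. With 1 library each, this difference could not be tested.

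Other factors of limb, body wall and face were present along with the Hox code. Of 43 listed, 40 were tested, 31 lay above the tissues and 0 below, and limma called 23 higher (median log2 difference 1.94). *Tbx15*, of skin and limb mesenchyme, was at 60.2 and 45.2 FPKM in MEFs, 0.188 and 0.154 in heart, and 0.287 and 0.0231 in liver (log2 difference 5.50 from heart and 5.53 from liver, SE 0.22, adjusted p = 1.18e-04). *Prrx2*, a paralogue of *Prrx1*, was at 174 and 205 FPKM in MEFs, 45.6 and 39.6 in heart, and 0.746 and 0.179 in liver (log2 difference 2.12 from heart and 7.05 from liver, SE 0.22, adjusted p = 0.00159). *Osr1*, of intermediate mesoderm and connective tissue, was at 34.03 and 33.1 FPKM in MEFs, 4.77 and 7.41 in heart, and 1.03 and 0.524 in liver (log2 difference 2.31 from heart and 4.30 from liver, SE 0.24, adjusted p = 0.0017). *Twist2*, of dermis, was at 49.7 and 27.7 FPKM in MEFs, 1.12 and 1.55 in heart, and 0.372 and 0.0344 in liver (log2 difference 4.04 from heart and 5.002 from liver, SE 0.32, adjusted p = 7.04e-04). Factors of several parts of the body were thus detected together. *Pitx1* and *Tbx4*, which mark the hindlimb, were at 50.5 and 10.9 FPKM and 15.5 and 3.75 FPKM in MEFs, and the WT library was the higher in both. *Zic1*, a zinc finger factor of dorsal mesoderm and neural tissue, was at 10.3 and 18.5 FPKM in MEFs, 0.101 and 0.0496 in heart, and 0.0146 and 0.0595 in liver (log2 difference 3.79 from heart and 3.84 from liver, SE 0.28, adjusted p = 6.23e-04). *Tbx5* and *Tbx18*, which the heart uses, were highest in heart.

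MEFs also expressed more secreted signals. Of 33 listed genes, 30 were tested, 23 lay above the tissues and 0 below, and limma called 20 higher (median log2 difference 2.70). *Grem1*, an antagonist of BMP, was at 28.1 and 47.03 FPKM in MEFs, 0.0534 and 0.0821 in heart, and 0.0386 and 0.00984 in liver (log2 difference 5.13 from heart and 5.19 from liver, SE 0.27, adjusted p = 2.42e-04). *Fgf7*, a growth factor for epithelia, was at 27.01 and 51.2 FPKM in MEFs, 0.227 and 0.217 in heart, and 0.117 and 0 in liver (log2 difference 4.97 from heart and 5.18 from liver, SE 0.31, adjusted p = 3.85e-04). *Cxcl12*, the chemokine that retains blood stem cells, was at 207 and 539.8 FPKM in MEFs, 49.4 and 60.3 in heart, and 37.8 and 36.2 in liver (log2 difference 2.59 from heart and 3.14 from liver, SE 0.42, adjusted p = 0.00743). *Bdnf*, a neurotrophin, was at 5.47 and 10.4 FPKM in MEFs, 0.112 and 0.1202 in heart, and 0.0652 and 0.0721 in liver (log2 difference 2.94 from heart and 3.01 from liver, SE 0.29, adjusted p = 0.00141). *Lif* was at 3.43 and 7.85 FPKM in MEFs, log2 difference 2.60 from heart and 2.65 from liver, SE 0.34, adjusted p = 0.00341. This cytokine, for which MEFs are used as feeder cells, was near 0 in the tissues. *Il6*, *Il11* and *Areg* did not reach 1 FPKM in any of the 6 libraries. *Vegfa* and *Tgfb1* were not separated.

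The enzymes that the study was about showed mixed positions. Of 17 tested DNA methylation genes, 7 lay below the tissues and 0 above, and limma called 4 lower (median log2 difference -0.44). *Dnmt1*, the maintenance enzyme, was at 37.3 and 32.1 FPKM in heart, 90.4 and 66.2 in liver, and 23.5 and 18.5 in MEFs (adjusted p = 0.0509, limma). *Uhrf1*, which brings DNMT1 to replicating DNA, was at 34.5 and 36.2 FPKM in heart, 158 and 152 in liver, and 15.9 and 11.5 in MEFs (log2 difference -1.33 from heart and -3.43 from liver, SE 0.16, adjusted p = 0.00285). *Dnmt3b* was at 1.22 and 1.22 FPKM in heart, 7.34 and 5.99 in liver, and 0.39997 and 0.964 in MEFs. Both MEF values of these 3 genes were the lowest of the 6, in the direction of the replication genes. The TET genes were not separated. Of 32 Polycomb genes, 8 lay above and 9 below, close to the shares of 26.4% and 22.8% among all tested genes. The limma test called 2 higher and 5 lower, against 15.0% and 11.0% of all tested genes. *Ezh2*, the methyltransferase of PRC2, was at 52.1 and 42.9 FPKM in heart, 89.4 and 89.9 in liver, and 18.8 and 17.3 in MEFs (log2 difference -1.34 from heart and -2.25 from liver, SE 0.13, adjusted p = 0.00137). *Cbx2*, a subunit of PRC1, was at 11.4 and 11.3 FPKM in heart, 5.58 and 4.59 in liver, and 1.36 and 1.67 in MEFs (log2 difference -2.30 from heart and -1.27 from liver, SE 0.17, adjusted p = 0.00373). *Ezh1*, the paralogue of *Ezh2*, was at 5.15 and 6.56 FPKM in MEFs, 3.21 and 6.11 in heart, and 5.32 and 4.999 in liver and was not separated. *Aebp2* and *Phc3* were the 2 genes called higher.

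Some genes of antigen presentation were higher in MEFs. Of 22 tested genes of the interferon response and antigen presentation, 8 lay above and 1 below, and limma called 7 higher (median log2 difference 0.85). The 7 calls fell to 2 without WT MEF, WT liver or the liver library labelled *Dnmt3a* KO, to 3 without the MEF library labelled *Dnmt3a* KO, and to 4 without either heart library. *B2m*, the light chain of MHC class I, was at 607 and 619 FPKM in MEFs, 119.6 and 154 in heart, and 249 and 299.6 in liver (log2 difference 2.17 from heart and 1.16 from liver, SE 0.16, adjusted p = 0.00365). *Tapbp*, which loads peptides, was at 208 and 134 FPKM in MEFs, 31.5 and 44.6 in heart, and 57.3 and 64.4 in liver (log2 difference 2.13 from heart and 1.45 from liver, SE 0.26, adjusted p = 0.01). *H2-D1*, a class I heavy chain, was at 124 and 139 FPKM in MEFs, 15.7 and 23.7 in heart, and 58.3 and 72.2 in liver (log2 difference 2.71 from heart and 1.01 from liver, SE 0.22, adjusted p = 0.0201). These genes separated MEFs from all tissue libraries, and *H2-K1*, another heavy chain, was highest in liver. In 2i-MEFs *B2m* was at 789.7 and 706 FPKM, *Tapbp* at 104 and 76.3 FPKM and *H2-D1* at 126 and 79.8 FPKM. The classical interferon genes differed within tissues instead. *Isg15* was at 26.8 and 10.1 FPKM in MEFs, 3.895 and 14.1 in heart, and 6.32 and 73.7 in liver. *Rsad2* was at 1.22 and 4.21 FPKM in heart, 5.46 and 44.5 in liver, and 0.994 and 0.6798 in MEFs. The liver library labelled *Dnmt3a* KO was the highest in both.

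Fibroblasts of another origin gave similar counts in most lists. With the 2i-MEF libraries in place of the MEF libraries, an alternative chosen after seeing the data, 4502 genes lay above and 3926 below the same 4 tissue libraries. Because the tissue libraries are shared, the 2 sets of counts are not independent. Side by side, MEFs had 27 and 2i-MEFs 29 of 34 matrix proteins above, 32 and 29 Hox genes above, and 28 and 28 mitosis genes below. Serum response genes had 18 in MEFs and 13 in 2i-MEFs above, with a median log2 difference of 3.32 and 1.30. *S100a4* was at 258 and 149.9 FPKM and *Penk* at 21.7 and 0.6296 FPKM in 2i-MEFs, lower than in MEFs. *Igf2* was at 2.301 and 1.04 FPKM in 2i-MEFs, against 5017 and 5158 FPKM in the GSK126-treated MEFs.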

How the data were processed

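RNA-seq libraries were made from polyadenylated RNA with a stranded kit. Reads were trimmed (cutadapt) and aligned to mm10 by tophat and Bowtie2 with the GENCODE M15 annotation, and the authors calculated FPKM from unique alignments with cufflinks. The deposited table gives FPKM for 52609 rows and no read counts, and no scaling between libraries is stated. Its rows of the Y chromosome (1570) and of the mitochondrial chromosome (37) are at 0 throughout.

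Rows of the same symbol were summed (155 repeat rows), and genes with at least 1 FPKM in at least 1 of the 6 libraries were kept. The limma test (limma 3.58.1, R 4.3.3) used log2(FPKM + 1), a mean for each material and a trended empirical Bayes fit. A gene was called when MEFs differed from heart and from liver in the same direction, by the larger of both p-values after Benjamini-Hochberg adjustment at 0.05. Differences on this scale understate the change of genes with low values. Depth was estimated from low FPKM values, which are multiples of 1 read. Between 96.8% and 98.1% of them were whole within 0.1 reads in the 6 libraries, and depth covers counting error only.

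The comparison, the 37 gene lists (896 symbols) and the tests were chosen with earlier results of these data known. Named genes are the 10 protein-coding genes with the widest gap (the log2 distance between the nearest MEF and tissue libraries) in each direction, the 10 protein-coding genes highest in MEFs among separated genes, and in each list those with the largest gaps, the highest levels or the opposite side. Other names were chosen after their values were seen. Promoters came from RefSeq (GRCm38.p6), with a window for 11249 of the 16096 genes. Alternatives were other filters, pseudocounts, scaling, summing and models, and leaving out each library. The DNA methylation samples were not analysed here, and some genes are not reported here. Python 3.11.15, pandas 2.3.3, numpy 2.4.6 and matplotlib 3.10.9 were used.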

Additional observations from a re-analysis of the deposited data

Results flagged for a closer look

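Among the listed genes reported here, 8 lay on opposite sides of heart and liver in the WT libraries and in the libraries labelled *Dnmt3a* KO. Of all 16096 tested genes 459 did, a larger share than among the 896 listed symbols, not all of which were tested. Of the 459, the WT MEF library was above for 149 and below for 310. With 1 library for each combination the difference was not tested. The values below are the MEF difference from the mean of heart and liver in WT minus that in the libraries labelled *Dnmt3a* KO, in log2(FPKM + 1). A positive value means that MEFs stood higher relative to the tissues in WT.

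Of these 8 genes, *Isg15* and *Oasl2* are induced by interferon. *Isg15*, a ubiquitin-like protein, had a value of 3.82, with 26.8 and 10.1 FPKM in MEFs, 3.895 and 14.1 in heart, and 6.32 and 73.7 in liver. *Oasl2* had a value of 2.57, with 9.15 and 4.73 FPKM in MEFs, 1.47 and 10.3 in heart, and 2.23 and 6.95 in liver. In both genes the MEF library labelled *Dnmt3a* KO was lower than WT, and the heart and liver libraries labelled *Dnmt3a* KO were higher than WT. The chemokine *Ccl5*, with a value of 1.59, was at 1.85 and 0.118 FPKM in MEFs, 0 and 0.392 in heart, and 0.346 and 0.352 in liver, and its tissue values were under 1 FPKM.

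The skeletal muscle genes *Tnnt3*, with a value of -3.66, and *Cdh15*, with -0.91, went the other way. *Tnnt3*, of fast muscle, was at 3.996 and 16.2 FPKM in MEFs, 13.2 and 7.21 in heart, and 8.52 and 0.224 in liver. *Cdh15*, of muscle precursors, was at 0.0182 and 0.179 FPKM in MEFs, 0.104 and 0.106 in heart, and 1.82 and 0.0637 in liver. Other muscle genes were also higher in the WT liver library than in the other liver library, such as *Myog* at 6.31 against 0.150 FPKM and *Myh3* at 9.96 against 0.248 FPKM. Whether muscle tissue was in that sample was not tested.

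The last 3 genes were *Ring1*, with -0.65 and 17.02 and 17.5 FPKM in MEFs, 20.1 and 12.6 in heart, and 19.3 and 12.5 in liver, *Cbx7*, with -0.58 and 0.847 and 1.43 FPKM in MEFs, 0.915 and 0.419 in heart, and 1.2998 and 1.41 in liver, and *Ndufa1*, with 0.18 and 198 and 187 FPKM in MEFs, 195 and 206 in heart, and 189 and 205 in liver.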

How the results depend on the processing

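The number of genes above the tissues was 5361 without a filter, 3354 at 5 FPKM, 4193 after median-of-ratios scaling, 4250 with the highest row in place of the sum, 3838 among protein-coding genes, 4399 to 5164 without 1 library, 4502 with 2i-MEFs in place of MEFs, and 1297 with a 2-fold gap. The number below was 4092, 3125, 3771, 3673, 3383, 3814 to 4604, 3926 and 633 in the same order. The limma test called 2248 higher and 1870 lower genes with a pseudocount of 0.1, 2194 and 1456 without a filter, 2428 and 1800 after scaling, 2373 and 1661 without a trend, and 1427 to 2214 and 994 to 1474 without 1 library, where the lone library was assumed to vary like the others. Fewest calls were left without a heart library, 1427 and 994 without WT and 1461 and 1031 without the one labelled *Dnmt3a* KO. With genotype as a block, which sets 1 MEF, 1 heart and 1 liver library beside each other, it called 2151 and 1570 genes, of which 2115 of the 2421 and 1534 of the 1768 genes were the same, with 0 in the opposite direction. The labels tie heart and liver of a genotype to 1 embryo and do not tie MEFs to an embryo.

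With 2i-MEFs in place of MEFs the direction turned for the median of imprinted genes (-0.48) and of macrophage genes (-3.40), and for the gap of *Igf2* (-10.69), *Cd36* (-4.57), *Cd68* (-2.63), *Adgre1* (-4.42), *C1qa* (-5.32), *C1qb* (-5.49), *C1qc* (-5.69), *Lyz2* (-2.62), *Tyrobp* (-5.97), *Fcer1g* (-5.79), *Mrc1* (-3.39), *Itgam* (-1.54) and *Fcgr3* (-4.53), and the cause was not tested. The part that the loss of imprinting reported by the study for 2i-MEFs had in the imprinted values was not tested either. Of 613 gaps of listed and named genes, 576 kept their size within the spread after scaling, 25 moved, 12 were no longer separated and 0 turned. With 2i-MEFs in place of MEFs, 175 kept their size, 360 moved, 65 were no longer separated and 13 turned. With a pseudocount of 0.1, 194 moved. Without 1 library, 255 moved for WT MEF, 127 for the MEF library labelled *Dnmt3a* KO, 93 for the heart library labelled *Dnmt3a* KO and 44 to 61 for the others, and 0 turned.

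Leaving out 1 library also moved other values by over 1.5 times, among them those that follow. Some counts of 1 or 2 genes below the tissues changed as well and are not listed. Limb and body wall factors had 15 in place of 23 higher calls without the liver library labelled *Dnmt3a* KO. NRF2 targets had 3 in place of 5 without WT MEF, WT heart or the liver library labelled *Dnmt3a* KO, amino acid stress genes 5 in place of 8 without either liver library (and 0 in place of 1 lower call without the heart library labelled *Dnmt3a* KO), and imprinted genes 2 in place of 4 without the heart library labelled *Dnmt3a* KO. The median of imprinted genes was 0.34 without the MEF library labelled *Dnmt3a* KO, and 2 in place of 1 were called lower without WT MEF. DNA methylation genes had 2 in place of 4 lower calls without the heart library labelled *Dnmt3a* KO or either liver library. Polycomb genes had 0 in place of 2 higher calls without the MEF library labelled *Dnmt3a* KO or either heart library, and 2 in place of 5 lower calls without either liver library or 3 without WT MEF or WT heart. Common reference genes had 0 in place of 3 lower calls without WT heart, 1 without any 1 library labelled *Dnmt3a* KO, and 1 in place of 2 higher calls without any 1 tissue library, and their median was -0.17 without the MEF library labelled *Dnmt3a* KO. Skeletal muscle genes had 0 in place of 1 lower call without the heart library labelled *Dnmt3a* KO and 2 without the liver library of that label. Surface epithelium genes had 2 in place of 0 above without the heart library labelled *Dnmt3a* KO and 3 in place of 1 below without WT liver. With a pseudocount of 0.1, limma called 10 cardiomyocyte, 8 hepatocyte and 2 skeletal muscle genes lower and 4 cartilage genes higher, and the medians of Hox genes (4.67), limb factors (4.01), endothelial genes (-5.58) and megakaryocyte genes (-3.52) lay further from 0. Each condition had 1 library, the 2 libraries of a material differ in genotype label and embryo, and heart and liver share embryos, so culture, age in culture, cell make-up and preparation cannot be told apart in MEFs.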

Other observations

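Genes of stress pathways were counted next. Of 22 NRF2 targets, genes of the oxidative stress response, 6 lay above the tissues and 1 below, and limma called 5 higher and 0 lower (median log2 difference 0.20). The share above was close to the 26.4% of all tested genes, and the median was 0.0030 without the WT MEF library and 0.42 without the one labelled *Dnmt3a* KO. *Hmox1*, which degrades haem, was at 223 and 261 FPKM in MEFs, 20.4 and 25.8 in heart, and 147 and 111 in liver (log2 difference 3.34 from heart and 0.92 from liver, SE 0.19, adjusted p = 0.0173). *Gclm*, of glutathione synthesis, was at 77.9 and 66.4 FPKM in MEFs, 61.6 and 45.98 in heart, and 446 and 564 in liver, highest in liver. Of 20 genes of amino acid stress, 10 lay above and 1 below (8 called higher and 1 lower, median 0.87). *Cebpb* was at 33.4 and 42.2 FPKM in MEFs, 3.08 and 2.93 in heart, and 8.54 and 5.57 in liver (log2 difference 3.27 from heart and 2.28 from liver, SE 0.23, adjusted p = 0.00139). *Chac1*, which degrades glutathione, was at 13.5 and 23.9 FPKM in MEFs, 0.624 and 0.902 in heart, and 1.19 and 1.49 in liver (log2 difference 3.43 from heart and 3.02 from liver, SE 0.29, adjusted p = 0.00127). *Asns*, asparagine synthetase, was at 50.7 and 54.9 FPKM in MEFs, 22.04 and 20.8 in heart, and 303 and 432 in liver, and *Phgdh*, of serine synthesis, at 115 and 126 FPKM in MEFs, 63.8 and 75.1 in heart, and 349.5 and 318 in liver, both highest in liver.

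Of 18 hypoxia targets, 4 lay above and 6 below (2 called higher and 3 lower, median -0.32, or -0.57 without the WT MEF library). *Adm*, adrenomedullin, was at 80.8 and 105 FPKM in MEFs, 5.45 and 3.49 in heart, and 3.59 and 4.21 in liver (log2 difference 4.11 from heart and 4.25 from liver, SE 0.23, adjusted p = 2.91e-04). *Pdk1*, which keeps pyruvate from the mitochondrion, was at 66.4 and 78.3 FPKM in heart, 65.5 and 54.6 in liver, and 14.6 and 6.29 in MEFs (log2 difference -2.78 from heart and -2.51 from liver, SE 0.35, adjusted p = 0.00429). Of 25 genes of cholesterol synthesis and uptake, 2 lay above and 1 below, with 1 called in each direction (median 0.12). The higher call was lost without any 1 library other than WT MEF, with a pseudocount of 0.1 and without a trend, and the lower call without the heart library labelled *Dnmt3a* KO. Without WT MEF 4 lay below and the median was -0.02, and without the MEF library labelled *Dnmt3a* KO 4 lay above. Most sat between heart and liver, such as *Sqle*, squalene epoxidase, at 44.3 and 40.7 FPKM in MEFs, 17.8 and 22.6 in heart, and 55.99 and 65.8 in liver.

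Imprinted genes, of which 26 of 30 were tested, lay above for 10 and below for 3 (4 called higher and 1 lower, median 0.55). *H19*, the RNA next to *Igf2*, was at 6026 and 6654 FPKM in MEFs, 5489 and 5643 in heart, and 4511 and 3541 in liver. *Impact* was at 31.95 and 37.3 FPKM in MEFs, 2.17 and 2.21 in heart, and 3.61 and 3.18 in liver (log2 difference 3.48 from heart and 3.02 from liver, SE 0.16, adjusted p = 2.46e-04). *Meg3*, a maternally expressed RNA, was at 25.6 and 126 FPKM in MEFs, 2.21 and 2.56 in heart, and 17.7 and 10.1 in liver. In *Meg3* the WT MEF library was close to WT liver, and the MEF library labelled *Dnmt3a* KO was far above. *Mest* and *Cdkn1c* were highest in heart. In 2i-MEFs, *Igf2* was at 2.301 and 1.04 FPKM and *H19* at 5846 and 4186 FPKM.

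Markers of other lineages were counted as well. Of 11 tested neural and neural crest genes, 6 lay above and 2 below, and limma called 6 higher and 0 lower. The sum of the 18 listed genes was 87.5 and 69.9 FPKM in MEFs, 102 and 112 in heart, and 21.2 and 12.6 in liver. By sum, heart was thus highest. *Sox10*, of neural crest and glia, was at 3.61 and 3.26 FPKM in MEFs, 0.378 and 0.258 in heart, and 0.364 and 0.155 in liver (log2 difference 1.75 from heart and 1.82 from liver, SE 0.19, adjusted p = 0.00187). *Stmn2*, of neurons, was at 17.9 and 11.2 FPKM in MEFs, 1.75 and 2.42 in heart, and 0.591 and 0.643 in liver (log2 difference 2.31 from heart and 3.23 from liver, SE 0.26, adjusted p = 0.00205). Of 13 cartilage and bone genes, 9 lay above and 1 below, and 2 were called higher, or 7 without the WT MEF library. *Col2a1*, the collagen of cartilage, was at 60.2 and 196.1 FPKM in MEFs, 27.8 and 44.7 in heart, and 0.197 and 0.886 in liver. *Runx2*, of bone precursors, was at 6.92 and 11.3 FPKM in MEFs, 0.764 and 0.0103 in heart, and 0.618 and 0.562 in liver (log2 difference 2.89 from heart and 2.63 from liver, SE 0.34, adjusted p = 0.00334). With 2i-MEFs in place of MEFs, 3 of 10 tested genes lay above. Of 14 epicardial and mesothelial genes, 1 lay above (*Msln*, called higher) and 4 below (3 called lower), of 14 skeletal muscle genes 0 and 7 (1 called lower), and of 8 surface epithelium genes 0 and 1 (called lower). The 3 lower epicardial calls were 0 without either heart library and 1 without either liver library or with a pseudocount of 0.1. The higher call was lost without WT heart, and 4 of these genes lay above without WT MEF. Without the WT liver library, 4 of the 8 muscle genes then tested lay below. Of 20 common reference genes, 6 lay above and 10 below, 2 and 3 by limma (median -0.27).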
